A study of Mus musculus with 16 samples.

Results

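The genes described here are 36 activity-regulated and immediate early genes, chosen by name and measured in the hippocampus of 9-month-old mice. All 36 were found by symbol among the 55385 genes of the count table, and all 36 passed the filter on low counts that left 17132 genes for testing. Polyadenylated RNA was sequenced from 4 groups, wild type (WT, labelled C57BL/6J), Dp16, 5xFAD and 5xFAD-Dp16, with 4 libraries each, 2 from females and 2 from males. Dp16 mice carry a duplication of a stretch of mouse chromosome 16 that matches much of human chromosome 21, and none of the 36 genes lies on chromosome 16. 5xFAD mice carry transgenes that drive amyloid deposition, under Thy1 promoter sequences, which act mainly in neurons. The double mutants carry both, and WT animals carry neither. The labels give no treatment, no stimulation and no time of day, so the levels are those of the tissue as it was collected.

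Immediate early genes are transcribed soon after a neuron fires, without the need for new protein. Calcium that enters through NMDA receptors and voltage-gated channels activates CREB through calmodulin-dependent kinases, and MAP kinase signalling activates SRF with its partner Elk1. The first genes switched on are mostly transcription factors, such as those of the Fos, Egr and Nr4a families, and these are followed by effectors that act at synapses or are secreted. In the hippocampus they are used as marks of recently active cells and take part in lasting synaptic change, while several of them are also induced by stress in glia and other cells.

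The promoter stretches of 4 of the genes are shown to compare which of these sequence elements each one holds. Fosb, Inhba and Plk2 are among the genes whose levels differ between the groups below. The stretch of Inhba holds the letters of the TATA box, 91 bases before the start of transcription, and no other motif searched. Each line gives bases 150 to 11 before the start of transcription (RefSeq, build GRCm38.p6), with capitals on every match of the motifs spelled out after them. Fos lies at chr12:85473740-85473879 on the plus strand, Fosb at chr7:19310056-19310195 on the minus strand, Inhba at chr13:16011701-16011840 on the plus strand and Plk2 at chr13:110394894-110395033 on the plus strand.
Fos: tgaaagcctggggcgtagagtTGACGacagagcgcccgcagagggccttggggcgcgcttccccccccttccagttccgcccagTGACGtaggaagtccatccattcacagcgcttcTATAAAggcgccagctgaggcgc
Fosb: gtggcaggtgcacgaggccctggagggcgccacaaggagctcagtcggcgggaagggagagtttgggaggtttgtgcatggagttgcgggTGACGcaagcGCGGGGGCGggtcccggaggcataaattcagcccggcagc
Inhba: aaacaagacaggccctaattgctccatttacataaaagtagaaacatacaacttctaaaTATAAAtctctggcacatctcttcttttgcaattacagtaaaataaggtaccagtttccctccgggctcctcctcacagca
Plk2: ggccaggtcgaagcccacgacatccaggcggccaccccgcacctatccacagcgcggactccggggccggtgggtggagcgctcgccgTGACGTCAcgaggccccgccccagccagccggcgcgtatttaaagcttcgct

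The motifs searched on both strands were the cAMP response element TGACGTCA, to which CREB binds, its core TGACG, the CArG box of SRF, the AP-1 site TGANTCA, the Egr site GCGNGGGCG and the TATA box TATAAA. Every match of TGACGTCA is also a match of TGACG. In windows of 300 bases, 250 before and 50 after the start, RefSeq gave 43 windows for 29 of the 36 genes. Egr1, Egr3, Arc, Ier2, Dusp4, Nptx2 and Vgf were not among them. The full element TGACGTCA was in 11.6% of these windows and in 1.79% of all 32851 windows of the same length. It lay near Btg2, Dusp1, Maff, Pcsk1 and Plk2. The core TGACG was in 55.8% against 20.8%, the Egr site in 18.6% against 5.55%, and the CArG box in 11.6% against 1.63%. All windows with a CArG box belonged to Dusp5 and Egr2, and 3 of the 4 such windows of Egr2 overlap each other. The AP-1 site was in 2.33% against 7.81% and the TATA box in 14% against 13.6%. A match describes these letters and not a bound site.

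Libraries held 16922937 to 25308693 counts and are named by group and by the number in their title. Levels per library are given in CPM, counts scaled to a common library total with TMM factors that correct for composition, always in the order WT 2, 4, 7, 16, Dp16 3, 5, 12, 14, 5xFAD 6, 10, 13, 15 and 5xFAD-Dp16 1, 8, 9, 11. Tissue content differed between libraries. A score of 12 thalamus markers (mean log2 CPM, WT mean at 0) was between 1.36 and 2.24 in WT 4, Dp16 14, 5xFAD 6, 13 and 15 and 5xFAD-Dp16 1, and between -1.12 and -0.43 in the other 10. The thalamus is a neighbour of the hippocampus, and 5xFAD held 3 of these 6 libraries. The 12 markers summed to 155 to 599 CPM in WT, 138 to 819 in Dp16, 162 to 583 in 5xFAD and 136 to 507 in 5xFAD-Dp16, and 1 marker, Gbx2 or Shox2, was at 0 counts in 6 of the 10 low libraries. The 12 excitatory neuron markers summed to 7434 to 9834 CPM in WT, 7163 to 11038 in Dp16, 4398 to 9553 in 5xFAD and 6984 to 9635 in 5xFAD-Dp16, with none at 0. Their score was lowest in 5xFAD 15, at -1.22, against -0.52 to 0.25 in the other 15 libraries. Choroid plexus markers (12) summed to 464 to 8311 CPM in WT and 51.9 to 978 in Dp16. In 5xFAD they summed to 61.6 to 6266 CPM and in 5xFAD-Dp16 to 74.4 to 3057. All 12 had a negative log2 fold change in Dp16 against WT (median -3.60), none with an adjusted p below 0.05 (edgeR). The part of choroid plexus content in the early-gene levels was not tested. In bulk tissue, fewer neurons and less of an RNA in each neuron cannot be told apart. The design text counts mice per group, while the labels do not tie a library to an animal, so p-values measure the spread between these libraries.

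Per length of transcript, the early genes spanned a wide range in WT. Levels comparable between genes are the deposited RPKM values, which are read counts divided by transcript length and by library total. Jund, an AP-1 subunit with high basal expression, was at 116 RPKM, the secreted neuropeptide precursor Vgf at 99.1, the synaptic kinase Plk2 at 62.0, and Jun, the main partner of Fos, at 50.5. Arc, which acts in the removal of AMPA receptors from synapses, followed at 38.9 and the zinc finger factor Egr1 at 35.2. At the other end were Npas4 (2.19), Maff (1.78), Inhba (1.08), Atf3 (0.99) and Egr2 (0.73). The CPM of single genes varied among the 4 WT libraries by a coefficient of variation of 1.5% for Gadd45g, 4.3% for Jund and 33.6% for Arc. It was above 35% for Fos, Klf4, Btg2, Maff and Egr2. Across all 16 libraries the highest level was 10.3 times the lowest for Atf3 and for Maff, and 1.47 times for Jund.

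**Figure D1:**
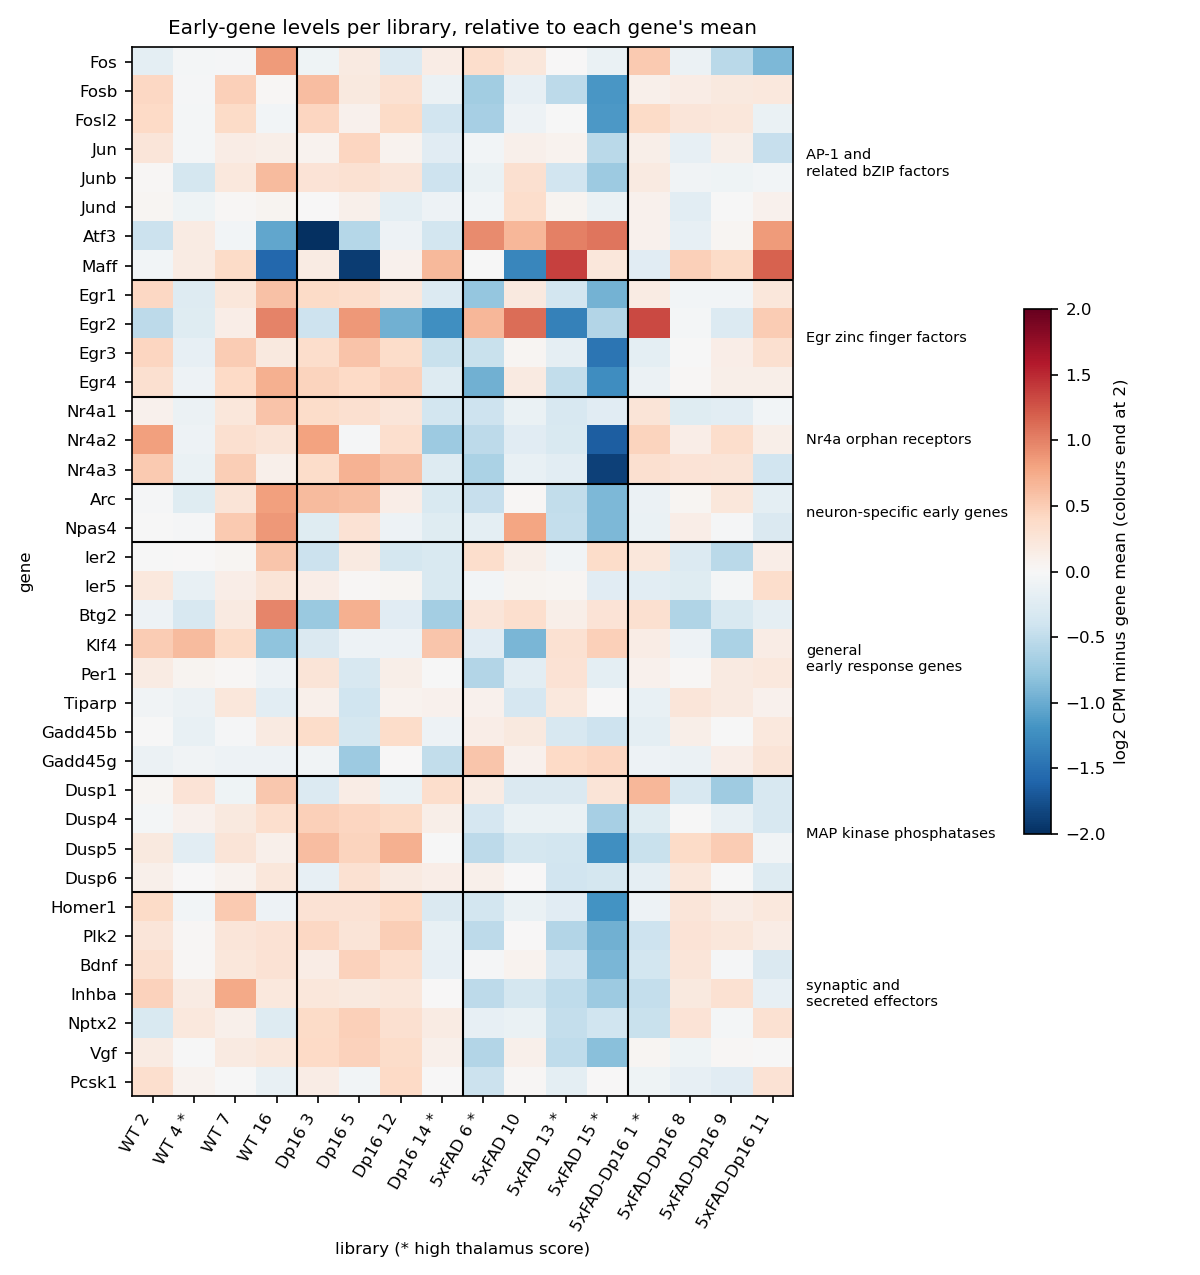
Each row is 1 of the 36 genes grouped by role, each column 1 library (* high thalamus score), and the colour is the log2 CPM minus the gene's mean over 16 libraries, with colours ending at 2. Blue cells gather in 5xFAD 15, which was lowest of all libraries for 19 genes, and red cells in WT 16 for Fos, Arc, Npas4, Btg2, Egr2 and Egr4. The share of all genes tested that were lowest in 5xFAD 15 was not computed.

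Single libraries stood out across many of the genes. 5xFAD 15, the library with the lowest excitatory neuron score, was the lowest of 16 for 19 genes, among them Arc, Bdnf, Egr1, Egr3, Egr4, Fosb, Homer1, Inhba, Npas4, Nr4a2, Nr4a3, Plk2 and Vgf. Its median over the 36 genes was 0.56 below the gene means (log2), and it was also the highest of all libraries for Atf3. WT 16 was the highest library for 9 genes, namely Arc, Btg2, Egr1, Egr4, Fos, Ier2, Junb, Npas4 and Nr4a1. These are mostly early transcription factors. Dp16 5 was the highest for 7, namely Bdnf, Dusp6, Egr3, Jun, Nptx2, Nr4a3 and Vgf. The share of all genes tested that were lowest or highest in these libraries was not computed, so these counts cannot be called particular to the early genes. The median over the 36 genes lay between 0.13 and 0.28 in the low-thalamus WT and Dp16 libraries, between 0.0050 and 0.099 in the low-thalamus libraries of both amyloid groups, and between -0.56 and -0.022 in the 6 high-thalamus libraries.

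**Figure D2:**
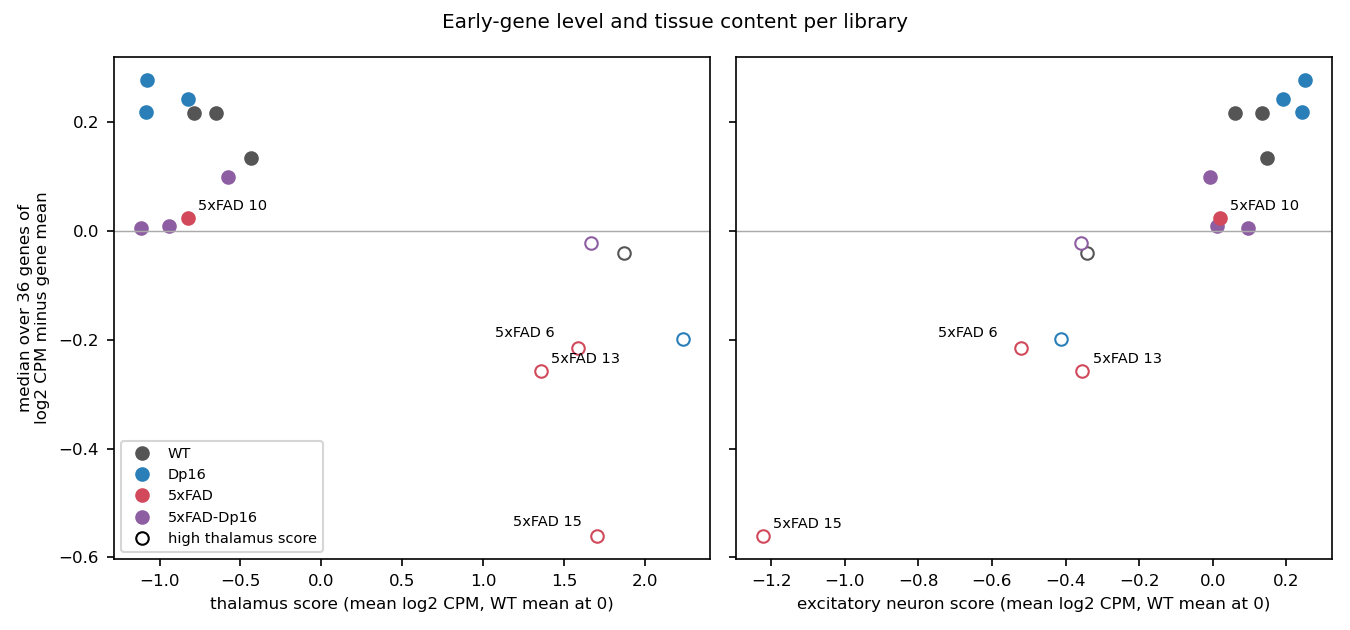
Each point is 1 library, with the thalamus score (left) or excitatory neuron score (right) on the x axis and the median over the 36 genes of log2 CPM minus gene mean on the y axis. Open points are the 6 high-thalamus libraries, which lie at or below -0.022, and 5xFAD 15 lies lowest at -0.56.

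In 5xFAD against WT, the comparison of the amyloid transgenes without the duplication, 5 of the 36 genes fell and 1 rose (edgeR quasi-likelihood test over all genes, called at an adjusted p below 0.05). Those that fell were the activin subunit gene Inhba, the AP-1 gene Fosb, the peptide precursor gene Vgf, the phosphatase gene Dusp4 and the kinase gene Plk2, and the stress factor gene Atf3 rose. This is 16.7% of the 36, against 7.26% of all genes tested (5.31% higher, 1.96% lower). The median log2 fold change was -0.31 over the 36 genes, with 29 negative, and 0.027 over all genes tested. At an unadjusted p below 0.05 there were 18 of the 36 and 24.9% of all genes. The 3 Nr4a receptors, all 4 MAP kinase phosphatases and all 7 synaptic and secreted effectors had negative values, whereas the general early response genes had a median of -0.067. Libraries of the groups did not overlap for 9 genes that were lower in 5xFAD (background 4.76%) and 2 that were higher (background 7.62%). Without 5xFAD 10, the one 5xFAD library with a low thalamus score, 16 of the 36 genes were called lower and the median was -0.54, while the share of all genes called lower went from 1.96% to 10.7%. Without the 6 high-thalamus libraries, which leaves 5xFAD 10 alone in its group, none was called lower, with 0.0996% of all genes called lower, and the median was -0.25.

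In the same comparison the markers of other tissue and cells moved too. All 12 thalamus markers were positive (median 0.86, none called), all 12 excitatory neuron markers negative (median -0.44, 1 called) and all 12 pyramidal cell markers of CA1 and CA3 negative (median -0.62, 2 called). Of 12 plaque-associated microglia markers 11 were called higher, with a median of 2.96, and all 10 homeostatic microglia markers were called higher too (median 1.11). All 10 mature oligodendrocyte markers were positive (median 0.52, none called), as were 9 of 10 astrocyte markers (median 0.18, 2 called). Of 6 oligodendrocyte precursor markers 5 were positive (median 0.16, 1 called). The mature oligodendrocyte score was 0.70, -0.40, 0.32 and 1.09 in 5xFAD 6, 10, 13 and 15, and -0.14 to 0.15 in WT. Fits with the thalamus or excitatory neuron score as a covariate are given with the genes below. No fit used a score of the pyramidal cell, microglia, oligodendrocyte, astrocyte or choroid plexus markers.

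Inhba encodes the beta A subunit of activin, a secreted factor induced in neurons by synaptic activity (chr13:16011851-16031621, plus strand). It stood at 7.21, 5.86, 8.85 and 6.01 CPM in WT and 6.12, 5.93, 6.10 and 5.25 CPM in Dp16. Levels were 3.59, 4.05, 3.64 and 3.09 CPM in 5xFAD and 3.72, 5.95, 6.42 and 4.62 CPM in 5xFAD-Dp16. Every 5xFAD library was thus below every WT and Dp16 library, while the double mutants spread across the gap. Inhba fell to 0.515-fold in 5xFAD (log2 -0.96 ± 0.19 SE, adjusted p = 0.00462, edgeR). The log2 value was -0.86 without the high-thalamus libraries, where it was not called, and -0.84 and -0.72 with the thalamus or excitatory score as a covariate, where it was. Counts were 75 to 188 per library, so counting error is part of this spread.

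Fosb encodes an AP-1 subunit whose truncated product accumulates with repeated activity, and the counts do not separate its isoforms (chr7:19302696-19310051, minus strand). Its levels were 17.5, 13, 18.5 and 13.3 CPM in WT and 20.2, 15.1, 16.3 and 12.2 CPM in Dp16. In 5xFAD they were 8.11, 11.7, 9.12 and 5.83 CPM, and in 5xFAD-Dp16 14.2, 14.6, 15.2 and 15.2 CPM. All 4 single mutants with amyloid were below all other libraries, and the double mutants lay within the range of WT. Fosb fell to 0.562-fold in 5xFAD (-0.83 ± 0.19, adjusted p = 0.0151, edgeR). The call was lost without WT 2, WT 7 or 5xFAD 6, without the high-thalamus libraries (-0.47) and with the excitatory score as a covariate (-0.51). It held with the thalamus score (-0.72).

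Vgf encodes a precursor of secreted peptides that is induced by BDNF (chr5:137026392-137033351, plus strand). In WT it was at 298, 265, 303 and 312 CPM and in Dp16 at 352, 367, 342 and 285 CPM. In 5xFAD it was at 178, 285, 188 and 149 CPM and in 5xFAD-Dp16 at 273, 251, 270.1 and 265 CPM. The 3 high-thalamus 5xFAD libraries were far below WT, and 5xFAD 10 was inside the WT range. Vgf fell to 0.678-fold (-0.56 ± 0.15, adjusted p = 0.0333, edgeR). The log2 value was -0.10 without the high-thalamus libraries and -0.30 with the excitatory score, neither of them called, and -0.48 with the thalamus score, called. It was also not called without any one of WT 2, 7 or 16 or of 5xFAD 6, 13 or 15.

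Plk2 encodes a kinase that weakens overactive synapses (chr13:110395046-110400844, plus strand), and its promoter above holds the full TGACGTCA element. It was at 179, 155, 180.2 and 186 CPM in WT and 203, 182, 213 and 137 CPM in Dp16. The 5xFAD libraries held 105, 153, 101 and 77.8 CPM and the double mutants 114, 184, 178 and 168 CPM. Within every group the high-thalamus libraries were the lowest. Plk2 fell to 0.622-fold in 5xFAD (-0.68 ± 0.20, adjusted p = 0.0485, edgeR), and its slope on the thalamus score had the smallest p of the 36 genes. The call was lost in 13 of 16 fits that left out 1 library and held without Dp16 14, 5xFAD-Dp16 1 or 5xFAD 10. It was lost without the high-thalamus libraries (-0.30) and with the excitatory score (-0.28), and kept with the thalamus score (-0.52).

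Dusp4 encodes a nuclear phosphatase that switches off MAP kinases (chr8:34807297-34819894, plus strand). Its levels were 16.3, 17.9, 19.3 and 21.3 CPM in WT and 23.4, 22.8, 21.9 and 18.2 CPM in Dp16. They were 13.4, 15.4, 15.4 and 10.6 CPM in 5xFAD and 14.3, 16.8, 15.2 and 13.5 CPM in 5xFAD-Dp16. Both amyloid groups were low, and only 5xFAD-Dp16 8 reached into the WT range. Dusp4 fell in 5xFAD against WT (-0.45 ± 0.13, adjusted p = 0.0468) and in 5xFAD-Dp16 against Dp16 (-0.53 ± 0.13, adjusted p = 0.0331, edgeR). The groups compared share no libraries, but both calls come from the same fit and its common estimate of the spread, so they are not independent. The first call was lost in 11 of 16 fits without 1 library, all but those without Dp16 14, 5xFAD-Dp16 1, 5xFAD-Dp16 8, 5xFAD 10 or 5xFAD 13, and with either score as a covariate (-0.38 for thalamus, -0.24 for excitatory neurons). The second was lost without any one of Dp16 3, 5 or 12 or 5xFAD-Dp16 1, 9 or 11.

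Atf3 encodes a stress-induced bZIP repressor known from injured neurons and from activated immune cells (chr1:191170296-191218039, minus strand). It was at 1.91, 2.93, 2.50 and 1.22 CPM in WT and 0.53, 1.71, 2.40 and 1.99 CPM in Dp16. In 5xFAD it was at 5.08, 4.17, 5.29 and 5.52 CPM and in 5xFAD-Dp16 at 2.75, 2.31, 2.65 and 4.76 CPM. All 5xFAD libraries were above all WT and Dp16 libraries, and 3 of the double mutants were inside the WT range. Atf3 rose 2.35-fold in 5xFAD (1.23 ± 0.34, adjusted p = 0.0365, edgeR), on 13 to 157 counts per library. The value was 1.13 with the thalamus score (called) and 0.94 with the excitatory score (not called). Without the high-thalamus libraries the fit gave 1.98, a call that rests on 5xFAD 10 alone and takes its spread from the other groups. The means of the same libraries, 4.17 CPM in 5xFAD 10 and 1.88 CPM in 3 WT, give a log2 ratio of 1.15. It was not called without any one of WT 2, 7 or 16, 5xFAD 6 or 5xFAD 15. The 12 plaque-associated microglia markers summed to 456 to 589 CPM in WT, 457 to 478 in Dp16, 1240 to 2413 in 5xFAD and 1249 to 1498 in 5xFAD-Dp16, with none at 0, and their part in the Atf3 difference was not tested.

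**Figure D3:**
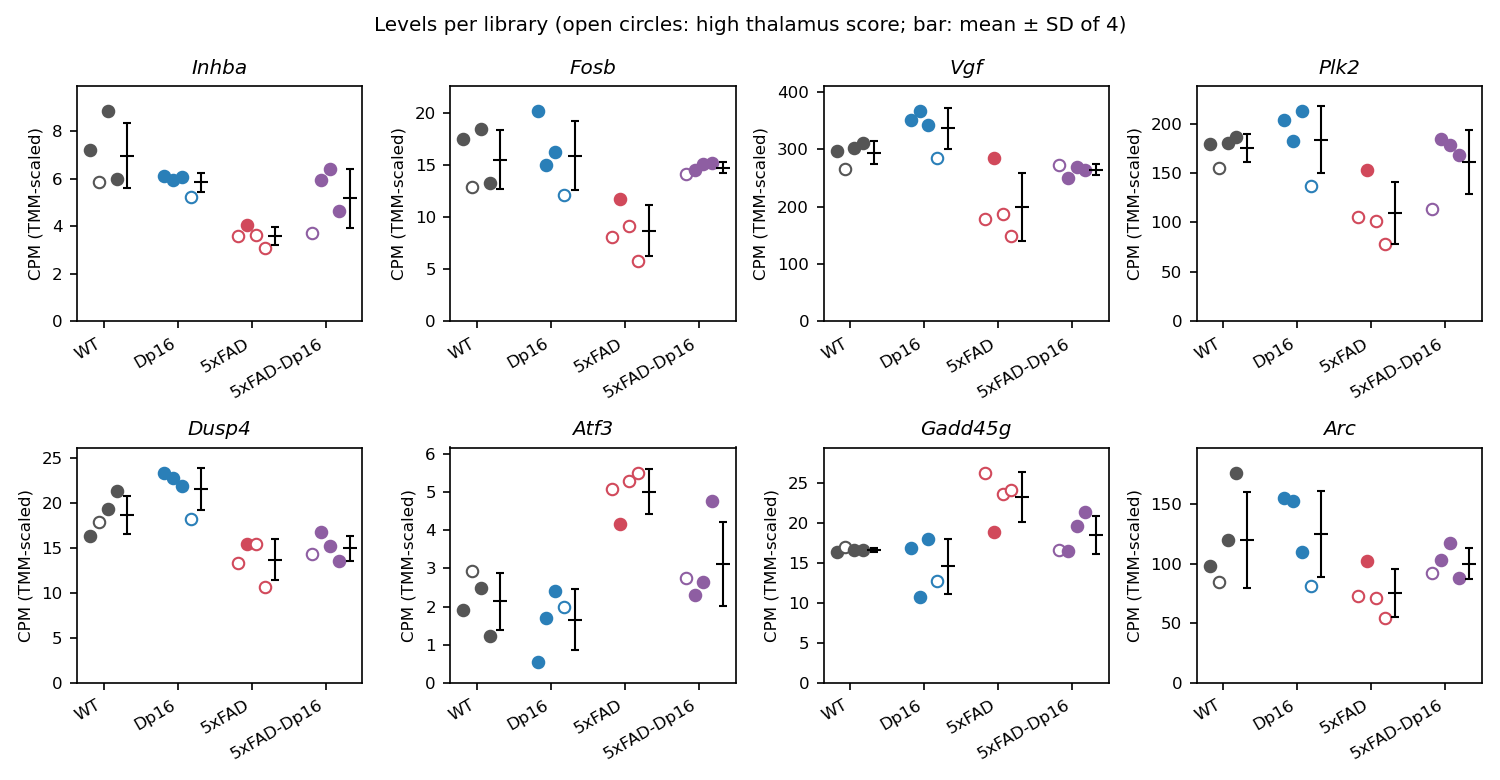
TMM-scaled CPM of 8 genes in each library (points, open for high thalamus score) by group, with mean and SD of 4 libraries as bars, on linear axes that start at 0. Inhba, Fosb and Plk2 are lower in every 5xFAD library than in every WT library, Atf3 is higher, and Dusp4 is low in both amyloid groups.

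Gadd45g, a growth arrest and DNA damage gene, was near its threshold in 5xFAD. Its levels were 16.3, 16.9, 16.6 and 16.6 CPM in WT and 16.9, 10.7, 18 and 12.7 CPM in Dp16. They were 26.3, 18.9, 23.6 and 24.1 CPM in 5xFAD and 16.6, 16.5, 19.5 and 21.4 CPM in 5xFAD-Dp16. All 5xFAD libraries exceeded all WT and Dp16 libraries (0.48 ± 0.15 against WT, adjusted p = 0.0614, edgeR), without passing the test. Its relative Gadd45b stood at -0.08 ± 0.18.

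The best known activity markers were not called between groups by edgeR in the fit with group and sex over all libraries. DESeq2 called Egr1, Nr4a1 and Arc lower in 5xFAD against WT, and Nr4a1, Arc and Bdnf lower in carriers of the amyloid transgenes against non-carriers. It called 5.99% of all genes lower in the first comparison and 6.13% in the second. Fos was at 12.3, 13.7, 13.8 and 25.6 CPM in WT and 13.2, 16, 11.6 and 15.7 CPM in Dp16. It was at 18, 16.6, 14.2 and 12.8 CPM in 5xFAD and 20.2, 13, 9.65 and 7.55 CPM in 5xFAD-Dp16. The groups overlapped throughout, WT 16 stood alone, and the log2 value in 5xFAD was -0.09 ± 0.28. The difference between Fos and Fosb was not tested.

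Arc was at 98.6, 85.1, 120.1 and 177 CPM in WT and 156, 153, 110.3 and 81.2 CPM in Dp16. It was at 73.2, 102, 71.6 and 54.0 CPM in 5xFAD and 92.5, 103, 117 and 87.8 CPM in 5xFAD-Dp16. Here 5xFAD 10 lay inside the WT range and the other 3 below it (-0.67 ± 0.25, adjusted p = 0.121, edgeR). Egr1 was at 175, 110.0, 154 and 199 CPM in WT and 172, 169, 153 and 109 CPM in Dp16. It was at 76.8, 151, 102 and 68.5 CPM in 5xFAD and 148, 127, 127 and 155 CPM in 5xFAD-Dp16. The pattern was that of Arc, with 3 libraries below WT and 5xFAD 10 within it (-0.68 ± 0.24, adjusted p = 0.0967).

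Npas4, a factor restricted to neurons and selective for calcium entry, was at 6.04, 6.00, 8.80 and 11.2 CPM in WT and 5.14, 7.48, 5.70 and 5.12 CPM in Dp16. It was at 5.29, 10.6, 4.37 and 3.23 CPM in 5xFAD and 5.55, 6.70, 5.98 and 4.99 CPM in 5xFAD-Dp16. All groups overlapped (-0.46 ± 0.30 in 5xFAD, adjusted p = 0.365, edgeR). Nr4a1, an orphan nuclear receptor, was at 50.7, 43.9, 56.2 and 71.2 CPM in WT and 62.0, 59.7, 56.6 and 37.0 CPM in Dp16. It was at 35.8, 43.8, 38.4 and 40.9 CPM in 5xFAD and 57.1, 40.6, 41.4 and 46.1 CPM in 5xFAD-Dp16. The highest 5xFAD library was just under the lowest WT library (-0.48 ± 0.17, adjusted p = 0.0951).

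Bdnf, the growth factor of activity-driven synaptic change, was at 42.4, 34.2, 39.5 and 41.2 CPM in WT and 37.2, 46.4, 42.5 and 30.1 CPM in Dp16. It was at 33.2, 35.5, 26.7 and 18 CPM in 5xFAD and 26.1, 39.9, 33.1 and 27.6 CPM in 5xFAD-Dp16. 3 of 4 5xFAD libraries were below WT (-0.47 ± 0.20, adjusted p = 0.15, edgeR). An antisense exon overlaps Bdnf, as it does Jun, Junb, Jund, Tiparp, Dusp1 and Dusp5, and the strand setting of the counting was not stated.

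Of the remaining 23 genes none was called by edgeR in the fit with group and sex over all libraries. DESeq2 called 6 of them lower in 5xFAD against WT, namely Egr3, Egr4, Nr4a2, Nr4a3, Dusp5 and Homer1, with 5.99% of all genes called lower. In 5xFAD against WT their log2 values ran from -0.94 for Nr4a2 to 0.45 for Maff. Those with an unadjusted p below 0.05 were all negative, namely Egr4 (-0.89), Homer1 (-0.63), a scaffold of metabotropic glutamate receptors, Dusp5 (-0.68), Nr4a2 (-0.94), Nr4a3 (-0.84), Fosl2 (-0.60) and Egr3 (-0.67), with adjusted p from 0.0595 to 0.13 (edgeR). For Nr4a2, Nr4a3, Dusp5 and Homer1 the 5xFAD and WT libraries did not overlap. Jund (0.06), Ier2 (0.03), Tiparp (0.03), Egr2 (0.04), Btg2 (-0.05) and Gadd45b (-0.08) were within 0.1 of 0. Pcsk1, the enzyme that cleaves Vgf and other prohormones, was at -0.20 ± 0.14, and Nptx2, a secreted clusterer of AMPA receptors, at -0.24 ± 0.16.

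In 5xFAD-Dp16 against Dp16, the same transgenes on the duplication, Dusp4 was the only one of the 36 that was called, and it was lower (2.78% against 3.02% of all genes, of which 2.99% were higher and 0.035% lower). The median log2 value of the 36 was -0.13, and 25 were negative. Values here were smaller than against WT for most genes that fell there: Inhba -0.18 ± 0.18, Fosb -0.11 ± 0.19 and Plk2 -0.19 ± 0.20, with Vgf at -0.35 ± 0.15. Vgf had all 4 double mutants below all Dp16 libraries, and Dusp4 did as well (background 3.44% lower). None was higher without overlap (background 6.56%). Without the high-thalamus libraries Atf3 was called higher (1.54) and Nr4a1, Dusp4 and Vgf lower (-0.50, -0.63 and -0.42). That fit called 2.76% of all genes higher and 0.393% lower in this comparison.

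**Figure D4:**
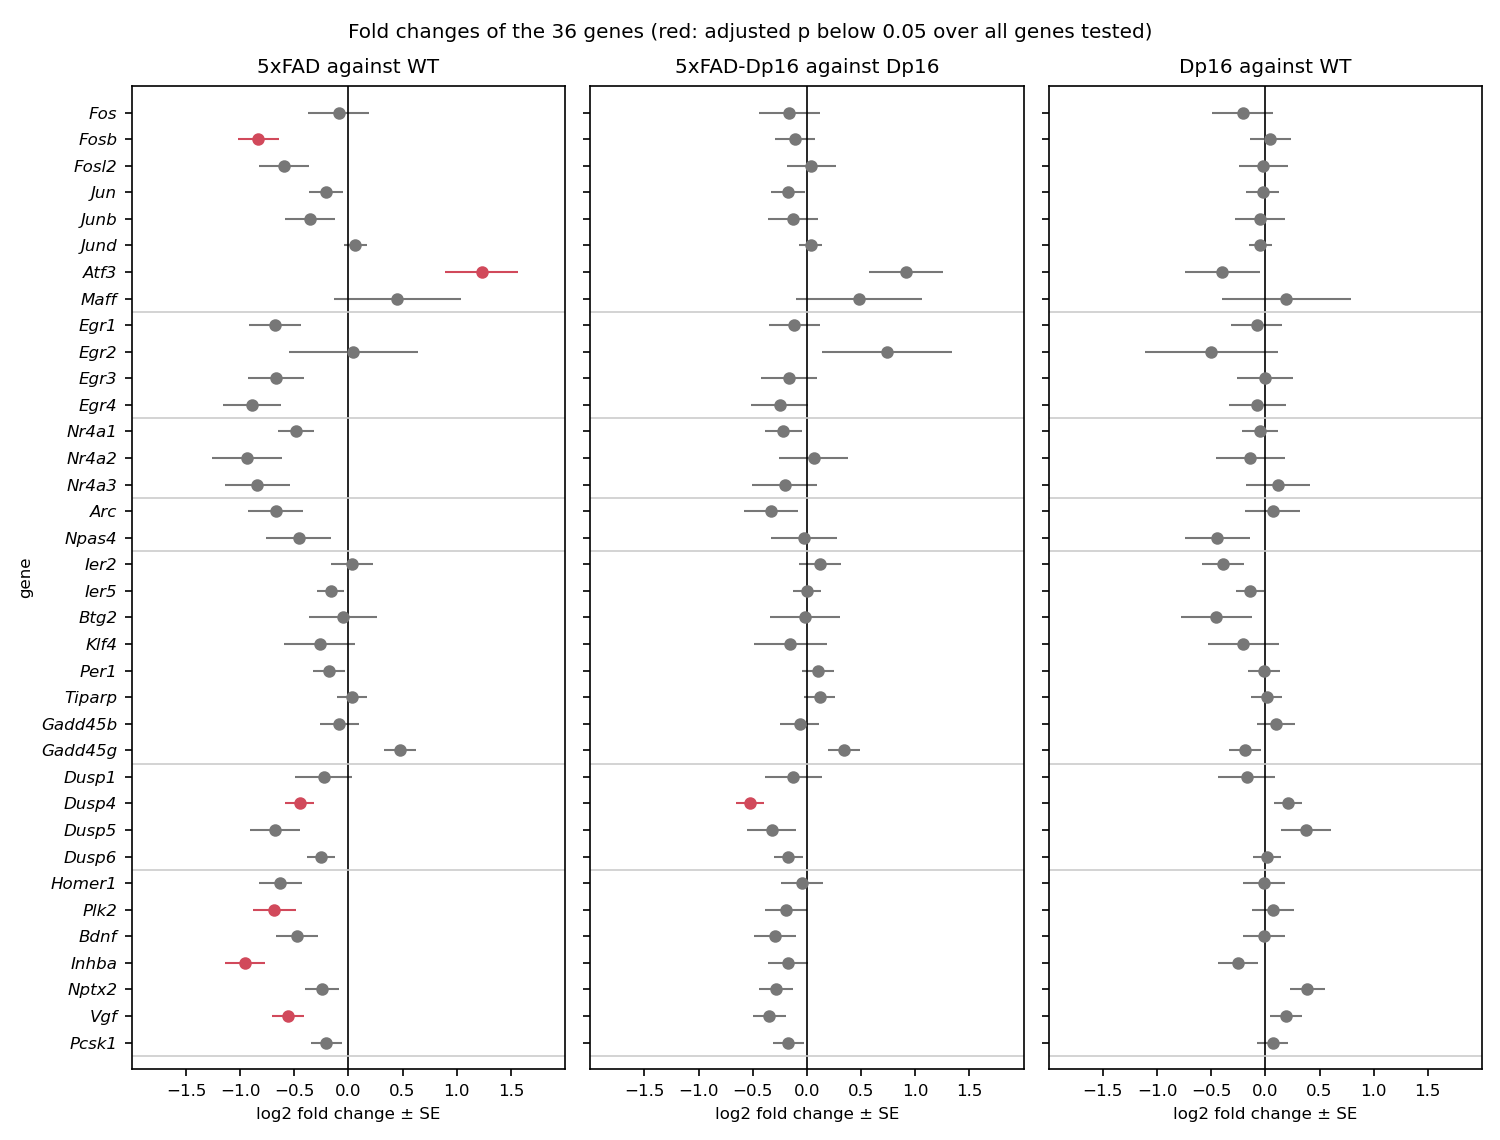
Log2 fold change with SE for each of the 36 genes in 3 comparisons, with called genes in red and lines between the roles. Values in 5xFAD against WT lie mostly left of 0 with 6 genes called, and those in Dp16 against WT gather around 0 with none called.

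The test of the difference between these amyloid effects, the interaction, called none of the 36 genes and none of all 17132 genes (0% background). At an unadjusted p below 0.05 there were 3 of the 36 (8.33%, near the 6.5% of all genes), Inhba (0.78 ± 0.26), Fosb (0.72 ± 0.27) and Nr4a2 (1.00 ± 0.45), each with an adjusted p of 0.718 (edgeR). DESeq2 called none either. Whether the duplication altered the amyloid effect on these genes is therefore not shown by these data.

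In 5xFAD-Dp16 against 5xFAD none of the 36 genes was called by edgeR (background 0.304%, 0.245% higher and 0.0584% lower), 12 had an unadjusted p below 0.05 (33.3%, against 19.1% of all genes), and DESeq2 called 3 higher, Fosb, Dusp5 and Homer1, with 2.85% of all genes called higher. The median log2 value was 0.19, with 27 positive. Fosb came nearest (0.77 ± 0.19, adjusted p = 0.0977). Its libraries did not overlap between the groups, nor did those of Nr4a2 and Homer1 (background 3.46% higher, and 3.89% lower, where there was no gene of the 36). Without 5xFAD 10, 9 were called higher, and so were 7.5% of all genes. The thalamus scores were unequal here too, with 1 high library among the double mutants and 3 in 5xFAD, and with that score as a covariate none was called. This comparison shares its 5xFAD libraries with that against WT, and a low 5xFAD library raises the one and lowers the other.

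For 5xFAD-Dp16 against WT, none of the 36 genes was called by edgeR or DESeq2 (background 3.2%, 3.1% higher and 0.0992% lower), and 2 had an unadjusted p below 0.05, Inhba (-0.43 ± 0.18) and Dusp4 (-0.32 ± 0.13). No gene of the 36 was without overlap between these groups (background 6.1% higher, 2.29% lower). Dp16 against WT likewise gave no call with either tool (background 0.228%, 0.222% higher and 0.00584% lower) and 1 unadjusted p below 0.05, for Nptx2 (0.39 ± 0.16, adjusted p = 0.782). Its levels were 18.7, 26.9, 25.1 and 19.5 CPM in WT and 30.3, 32.4, 29.2 and 26.2 CPM in Dp16. The median of the 36 in Dp16 was -0.023, with 13 positive and 23 negative, and all 36 overlapped (background 2.41% higher, 2.07% lower). Females and males showed no call with either tool (background 0.0642%, 0.035% higher and 0.0292% lower) and no unadjusted p below 0.05 among the 36 genes.

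Pooling both duplication states doubles the libraries on each side. In amyloid carriers against non-carriers 4 of the 36 genes fell and 2 rose, 16.7% against 8.6% of all genes (6.61% higher, 1.98% lower). Atf3 rose 2.1-fold (1.07 ± 0.24, adjusted p = 0.00917) and Gadd45g 1.33-fold (0.41 ± 0.10, adjusted p = 0.0219). Dusp4 fell to 0.712-fold (-0.49 ± 0.092, adjusted p = 0.00214), Inhba to 0.675-fold (-0.57 ± 0.13, adjusted p = 0.0108), Vgf to 0.731-fold (-0.45 ± 0.11, adjusted p = 0.0122) and Fosb to 0.721-fold (-0.47 ± 0.13, adjusted p = 0.0376, all edgeR). The groups overlapped in at least 1 library for all 36 genes (background 2.67% higher, 0.14% lower). This comparison contains the libraries of the previous ones and is not a repeat of them.

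The calls for Atf3, Dusp4 and Vgf in carriers held in all 9 other settings and in all 16 fits without 1 library. With the thalamus score as a covariate they stood at 1.04, -0.45 and -0.41, without the high-thalamus libraries at 1.76, -0.53 and -0.26, and with the excitatory score at 0.90, -0.35 and -0.28. The 1.76 of Atf3 weights 5xFAD 10 as much as the 3 double mutants together. The means over the same libraries, 3.47 CPM in carriers and 1.71 CPM in non-carriers, give a log2 ratio of 1.02, and their libraries overlap. Inhba was lost in the last 2 of these (-0.47 and -0.42), as were Fosb (-0.33 and -0.26) and Gadd45g (0.27 and 0.39). Fosb was also lost in 12 of the 16 fits without 1 library, all but those without WT 4, WT 16, Dp16 14 or 5xFAD 10, and Gadd45g without WT 2, 5xFAD-Dp16 11 or 5xFAD 6. With the thalamus score, Egr4 (-0.47), Dusp5 (-0.42) and Plk2 (-0.37) were called lower as well, and so were 3.9% of all genes. Within the 10 low-thalamus libraries, 4 carriers and 6 non-carriers, 28 of the 36 genes had a lower mean in carriers (median log2 ratio -0.25). Within the 6 high-thalamus libraries, 4 carriers and 2 non-carriers, 22 had (median -0.12). The share of all genes with a lower mean in carriers was not computed for either set of libraries.

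**Figure D5:**
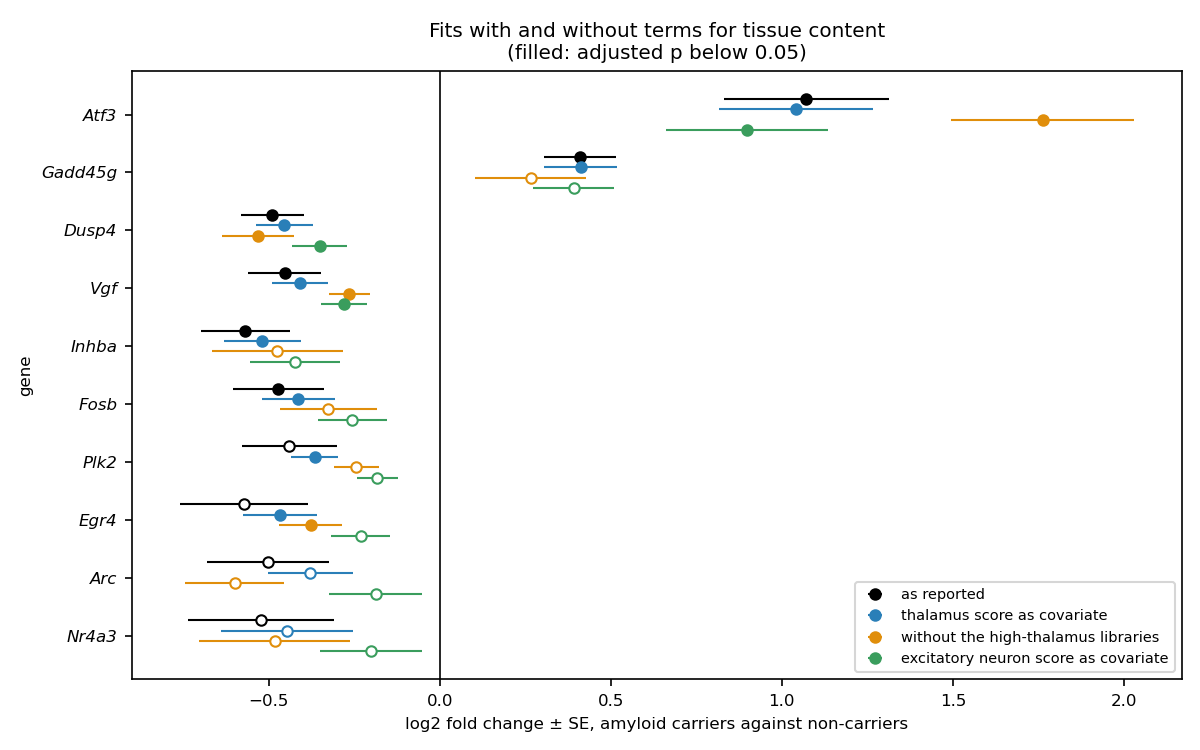
Log2 fold change with SE in amyloid carriers against non-carriers for 10 genes under 4 fits, filled where called. Atf3, Dusp4 and Vgf stay filled in all 4, and most values move toward 0 with the excitatory neuron score as a covariate.

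Dp16 carriers against non-carriers gave no called gene among the 36 with edgeR (background 0.531%, 0.432% higher and 0.0992% lower), 8 with an unadjusted p below 0.05 (22.2%, against 16.9% of all genes), and 2 called higher by DESeq2, Dusp5 and Nptx2, with 1.79% of all genes called higher. In edgeR these stood at 0.55 ± 0.16 and 0.37 ± 0.11 (adjusted p = 0.149 and 0.153). All 7 synaptic and secreted effectors were positive, with a median of 0.28. All 36 overlapped between carriers and non-carriers (background 0.304% higher, 0.0525% lower).

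Thalamic content itself went with early-gene level. In a fit with group, sex and the thalamus score, 11 of the 36 genes had a called slope, 30.6% against 12.5% of all genes (5.87% higher, 6.58% lower). Per unit of score 10 were lower, Plk2 (-0.20 ± 0.03, adjusted p = 0.000468), Egr4 (-0.24), Egr3 (-0.23), Dusp5 (-0.20), Arc (-0.21), Homer1 (-0.16), Bdnf (-0.15), Egr1 (-0.18), Ier5 (-0.10) and Vgf (-0.11). Klf4, a zinc finger factor that is also expressed in endothelial cells, was higher (0.27 ± 0.07, adjusted p = 0.0242, edgeR). Fos, Fosb, Inhba, Dusp4, Atf3 and Gadd45g had no called slope.

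The pathway upstream of these genes was read from 3 lists. Of 23 genes that link calcium and cAMP to CREB, 5 fell in 5xFAD against WT and none rose (median -0.37), which is 21.7% of the list against 7.26% of all genes, of which 1.96% were lower. They were Camk4 (-0.54) and Camkk1 (-0.43), which phosphorylate CREB and its kinase, the calcium channel subunit Cacna1d (-0.37) and the NMDA receptor subunits Grin1 (-0.41) and Grin2a (-0.87). Camkk1 (-0.35) and Grin1 (-0.29) also fell in carriers against non-carriers. They are 8.7% of the list, while 8.6% of all genes were called in either direction and 1.98% were called lower. 12 of the 23 had a called negative slope on the thalamus score, 52.2% against 6.58% of all genes, these 4 (Camk4, Camkk1, Grin1 and Grin2a) among them.

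Camk4 was the 1 upstream gene called between the amyloid groups, 4.35% of the list of 23 against 0.304% of all genes (0.245% higher). It was higher in 5xFAD-Dp16 than in 5xFAD (0.75 ± 0.15, adjusted p = 0.0422) and in Dp16 carriers than in non-carriers (0.50 ± 0.10, adjusted p = 0.0389, edgeR). Of all genes, 0.432% were called higher in Dp16 carriers. The part of thalamic content in the Camk4 difference was not tested. In Dp16 against WT none of the list was called, and Prkaca, the catalytic subunit of protein kinase A, and Camk4 had the smallest p (0.17 ± 0.07 and 0.24 ± 0.15). The double mutants against Dp16 gave no call either, with Prkaca at -0.18 and Camkk1 at -0.27.

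Of 23 genes from MAP kinase to SRF and MEF2, the kinase gene Braf fell in 5xFAD (-0.50 ± 0.13, adjusted p = 0.0335) and Rps6ka1, a kinase below ERK, rose (0.47 ± 0.13, adjusted p = 0.0333, edgeR), with a list median of -0.20. These are 8.7% of the list, near the 7.26% of all genes. In carriers Rps6ka1 alone was called (0.38), 4.35% of the list against 8.6% of all genes (6.61% higher). None was called in Dp16 against WT, where Elk4 stood at -0.19, or in 5xFAD-Dp16 against Dp16, where Rps6ka1 (0.29) and Mef2c (0.46) had the smallest p.

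Of 30 other activity-regulated genes, 1 rose and 1 fell in 5xFAD against WT (median -0.035), 6.67% of the list and below the 7.26% of all genes. Zfp36, which promotes decay of inflammatory and early response mRNAs, rose (0.81 ± 0.18, adjusted p = 0.0115), and the neuronal receptor Sorcs3 fell (-0.64 ± 0.15, adjusted p = 0.0186, edgeR). In carriers 4 rose, Zfp36 (0.73), the matricellular gene Ccn1 (0.55), Klf6 (0.24) and the survival gene Mcl1 (0.24), and Sorcs3 fell (-0.39), 16.7% of the list against 8.6% of all genes. Zfp36 was also higher in 5xFAD-Dp16 than in WT (0.80). In 5xFAD-Dp16 against Dp16 none was called, with Zfp36 at 0.66 and Ccn1 at 0.77, and in Dp16 against WT none, with Rgs4 at 0.34 and Ccn1 at -0.39.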

How the data were processed

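The authors deposited raw read counts per gene and RPKM values, in whole-series tables per the file headers. Per the labels' protocols, strand-specific libraries were made from poly-A RNA. HISAT2 2.1.0, HTSeq 0.6.1, SAMtools 1.5, FastQC 0.11.5, bcl2fastq and the build GRCm38 are listed, per the submitters' processing notes, and the settings are not given in the sources used here. The deposited RPKM values equalled the count over the column total and 1 length per gene for all 32180 genes with counts (tolerance 1e-06). Counts were fitted with edgeR 4.0.16 (R 4.3.3): filterByExpr with a minimum count of 10, TMM, and a robust quasi-likelihood model with group and sex over all 16 libraries, with Benjamini-Hochberg adjustment over 17132 genes. Alternatives used DESeq2 1.42.0, limma 3.58.1 on log2(RPKM + 0.1), other filters and scaling, and tissue scores, the excitatory score being added after seeing the data. Gene positions are from GENCODE M21 (GRCm38). The fit was tested on simulated data. The 36 genes and all lists were chosen with earlier results of these data known. Values per library are given for genes called in any comparison between groups and for Fos, Arc, Egr1, Npas4, Nr4a1 and Bdnf. In the pathway lists the called genes are named, or, without a call, the 2 with the lowest p, except for an item that is not reported here.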

Additional observations from a re-analysis of the deposited data

Results flagged for a closer look

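In 8 of 144 checks of 1 gene in the 4 libraries of 1 group, a single library stood apart from the others (its gap to the nearest was over Dixon's critical value for 4 values), a rate that chance gives in about 5% of groups. Fos was highest in WT 16, at 25.6 CPM, with the next at 13.8 CPM, and Ier2 was highest there too, at 10.0004 against 7.02 CPM. Junb was lowest in Dp16 14, at 41.9 CPM, with the next at 65.7 CPM. Egr4 was lowest in the same library, at 22.9 against 36.2 CPM. Junb was highest in 5xFAD-Dp16 1, at 63.3 against 53.7 CPM. Nr4a3 was lowest in 5xFAD-Dp16 11, at 68.3 against 107 CPM. In Dp16 5, Ier2 was highest (7.7 against 5.5 CPM) and Tiparp lowest (14.6 against 20.2 CPM). Dp16 14 and 5xFAD-Dp16 1 are the high-thalamus libraries of their groups, and what part this has in the levels of Junb and Egr4 was not tested.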

How the results depend on the processing

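No called gene changed direction in any setting. Among genes not called, 14 of the 36 had the other sign in at least 1 setting in 5xFAD against WT, among them Npas4 (-0.46, at most 0.15) and Maff (0.45, at least -0.73), and 11 did in carriers. The median of all genes in 5xFAD against WT, 0.027, was -0.00024 with DESeq2 and -0.011 without the high-thalamus libraries. In 5xFAD against WT, the count of the 36 genes called lower went from 5 to 14 with DESeq2, 17 with no low-count filter, 1 with only the groups compared and 2 with the excitatory score. Of all genes, 1.96% were called lower, and 5.99%, 3.69%, 0.183% and 0.543% in these settings. The count called higher went from 1 to 2 with DESeq2, 2 without the filter and 0 with the excitatory score. Of all genes, 5.31% were called higher, and 6.4%, 4.68% and 3.47% in these settings. Leaving out 1 library gave 1 to 16 lower, 0 to 2 higher and a median of -0.54 to -0.29. Over all genes it gave 0.195% to 10.7% lower and 3.02% to 9.3% higher. In carriers against non-carriers, 4 lower became 11 (DESeq2), 18 (no filter) and 7 (thalamus score), and 2 higher became 1 with the excitatory score. Of all genes, 1.98% lower became 6.13%, 3.25% and 3.9%, and 6.61% higher became 5.49%. Leaving out 1 library gave 3 to 14 lower and 1 to 2 higher. Over all genes it gave 0.675% to 9.59% lower and 5.33% to 9.48% higher. In 5xFAD-Dp16 against Dp16, 1 lower became 2 (no filter) and 3 (no high-thalamus libraries), 0 higher became 1 in both, and leaving out 1 library gave 0 to 2 lower. Of all genes, 0.186% and 0.393% were lower and 2.58% and 2.76% higher in the first 2 settings. Leaving out 1 library gave 0% to 0.0573% of all genes lower. In 5xFAD-Dp16 against 5xFAD, 0 higher became 3 (DESeq2) and 12 (no filter), and 0 to 9 without 1 library. Of all genes, 2.85%, 2.83% and 0.166% to 7.5% were higher in these settings. In 5xFAD-Dp16 against WT, the fit without the high-thalamus libraries called 1 higher and 2 lower, with 2.71% of all genes higher and 0.227% lower. Dp16 carriers had 2 higher with DESeq2, 11 higher and 1 lower with no filter, and 0 to 2 higher without 1 library. Of all genes, 1.79% were higher with DESeq2, 2.07% higher and 2.43% lower with no filter, and 0.332% to 4.42% higher without 1 library. With no filter, the interaction gave 6 higher and the comparison of females with males 2, with 0.534% and 0.522% of all genes called higher. The cause of these shifts was not tested. The fits that leave libraries out also have fewer samples. Without the filter 32180 genes were tested and 8.37% were called in 5xFAD against WT, against 12.4% with DESeq2. Without 5xFAD 10, 9.59% of all genes were called lower in carriers, and without Dp16 14 3.64%, against 1.98%. With RPKM the median of all genes in 5xFAD-Dp16 against 5xFAD was -0.10. No paired analysis was possible because the replicate numbers in the titles are unique to each library. Atf3, Egr2 and Maff had the lowest mean CPM of the 36 genes (2.98, 2.35 and 5.18). Their coefficients of variation among the WT libraries were 34.7%, 52.1% and 46.1%, against 19.8% for Inhba at a mean of 5.40 CPM. Smaller differences in these genes could have been missed, and the part of sequencing depth in this was not tested.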

Other observations

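Within the 10 libraries of low thalamus score, 4 genes had every carrier of amyloid transgenes below every non-carrier. They were Nr4a1 (40.6 to 46.1 against 50.7 to 71.2 CPM), Egr4 (27.9 to 31.1 against 34.3 to 45.0 CPM), the MAP kinase phosphatase gene Dusp1 (15 to 20 against 20.2 to 35.8 CPM) and Vgf (251 to 285 against 298 to 367 CPM). Within the 6 of high score, Btg2, an antiproliferative early gene, was higher in all 4 carriers (13.8 to 16 CPM) than in both non-carriers (7.96 and 10.2 CPM). There, 7 genes were lower in all 4 carriers than in both non-carriers, namely Klf4, Dusp4, Dusp5, Plk2, Inhba, Nptx2 and Pcsk1. These genes were picked out after their values were seen, and the libraries were not split by any label of the study. The share of all genes tested that separate in this way was not computed.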
